A study of Homo sapiens with 12 samples.

Results

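The genes described here encode splicing regulators of 3 families: the serine and arginine-rich splicing factors (symbols SRSF and a number), the heterogeneous nuclear ribonucleoproteins (symbols starting with HNRNP) and the CDC-like kinases CLK1 to CLK4. They were chosen by symbol alone, from probe sets annotated to exactly 1 gene, with no measured value of any comparison in the rule. The rule gave 35 of the 19775 genes on the array: 10 SRSF genes, 21 HNRNP genes and 4 CLK genes. Of these, 34 passed the filter on low values and were tested. HNRNPD-DT, a long non-coding RNA gene next to HNRNPD, did not pass and read between 3.54 and 4.25 on the log2 scale over the 12 arrays. HNRNPA3P1 is a transcribed pseudogene of HNRNPA3. SRSF2, SRSF9 and HNRNPH2 were not analysed here, because their probe sets carry a further symbol.

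The cells were HK-2, a single human line of immortalised epithelial cells from the renal proximal tubule, grown with insulin, transferrin, selenite, hydrocortisone and epidermal growth factor. Near confluence they received either the compound labelled CdCl, at a dose not given in the sources used here, or its control vehicle. RNA was taken at 12 h or 48 h, which gave 4 groups of 3 biological replicates: control at 12 h, CdCl at 12 h, control at 48 h and CdCl at 48 h. Gene expression was measured on 12 Affymetrix arrays, 1 per replicate, and each value is a log2 signal of a probe set, a group of short probes for 1 transcript region.

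SR proteins bind exonic enhancer sequences and recruit the spliceosome to nearby splice sites, while hnRNPs coat nascent transcripts and often act as silencers or as competitors of SR proteins. CLK kinases phosphorylate the arginine-serine domains of SR proteins in the nucleus and so set their activity and their release from nuclear speckles. CLK1 and CLK4 transcripts are known to be kept partly unspliced in the nucleus and to be spliced on heat or osmotic stress. Many SR and hnRNP genes regulate their own level through poison exons or intron retention, so that probe sets of 1 gene can read productive and unproductive transcripts apart.

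The CdCl arrays carried a strong metal response at both times. MT1M, a metallothionein, was higher by 4.82 ± 0.14 (log2 change ± SE) at 12 h and by 6.49 ± 0.14 at 48 h, and HMOX1, heme oxygenase 1, by 6.24 ± 0.08 and 6.34 ± 0.08. All 7 epithelial markers were above the filter of 4, but of 13 proximal tubule markers measured 5 were (PAX8, CDH6, CDH2, SLC4A4 and MME), while AQP1, CUBN, LRP2, GGT1 and ANPEP among others were not. MME had a mean above 4 only in CdCl cells at 12 h (4.21). Its means were 3.86 and 3.72 in control at 12 h and 48 h and 3.61 in CdCl at 48 h. The summed level of the proximal tubule markers was 68.12 to 68.61 on the control arrays at 48 h and 62.94 to 63.37 on the CdCl arrays, with lower means of SLC4A4 (12.61 in control, 9.46 in CdCl) and CDH6 (10.87 and 8.63) and a higher one of PAX8 (9.36 and 9.68). The summed epithelial level was 67.95 to 69.06 in control and 65.54 to 65.84 in CdCl at 12 h, and 69.90 to 70.62 against 67.11 to 67.90 at 48 h. At 48 h CDH16 had the largest fall of the epithelial markers, from a mean of 8.21 in control to 5.13 in CdCl. KRT18 (12.22 in control and 12.01 in CdCl) and EPCAM (13.10 and 12.79) were also lower, and KRT8 was nearly level (10.55 and 10.53). CDH1 (8.14 and 8.55), KRT7 (6.53 and 6.77) and KRT19 (11.51 and 11.65) were higher. The part of these marker levels in the results below was not tested. None of 4 endothelial, 3 leukocyte and 3 podocyte markers measured passed, and DCN and LUM, of 4 fibroblast markers, did. Of 3 thick limb and collecting duct markers measured, AQP2 passed, at 4.09 to 4.56. The values come from RNA of whole cultures, so fewer cells of a kind and less RNA per cell cannot be told apart.

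At 12 h, most of the genes that changed were lower in CdCl-treated cells. Of 34 genes tested, 5 rose (CLK1, SRSF12, HNRNPC, SRSF3 and SRSF7) and 17 fell, with an adjusted p under 0.05 in limma. That is 64.7% called, beside 56.4% of all 10683 genes tested, and 50.0% lower, beside 39.7%. The share that rose was 14.7%, beside 16.7%. Single changes ran from -0.72 (HNRNPF) to 0.93 (CLK1), all short of 2-fold, and their median was -0.25, beside -0.16 over all genes tested. The arrays of the groups did not overlap for 26 genes, 6 with every CdCl array higher (19.8% of all genes) and 20 with every one lower (46.6%).

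At 12 h the median level of all tested genes was itself lower on the CdCl arrays by 0.15, without overlap. The added poly-A control transcripts read 6.96 to 7.04 on the CdCl arrays and 6.39 to 6.63 on the controls. The difference between the 3' and 5' probe sets of GAPDH, a measure of RNA integrity and labelling, lay lower in CdCl, at -0.05 to -0.0028 against 0.02 to 0.20. That of actin overlapped, at 1.69 to 1.80 in CdCl and 1.71 to 2.11 in control. So did the mean of the hybridisation controls, at 10.58 to 10.68 and 10.47 to 10.70. The part of these values in the 12 h result was not tested. With each array centred on the median of its tested genes, 7 members rose and 12 fell, so the share of rises among the calls went from 22.7% to 36.8%. The median change of the members was then -0.10, beside -0.01 over all genes. Shares of all genes that rose and fell after centring are not given here.

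At 48 h, the same number of genes was called and the falls were again in the majority. CLK3, SRSF12, SRSF3 and SRSF7 rose and 18 genes fell, 64.7% of 34 beside 54.6% of all genes. The share that fell was 52.9%, beside 28.0% of all genes, and the share that rose 11.8%, beside 26.5%. Changes ran from -0.96 (HNRNPA2B1) to 0.94 (CLK3), with a median of -0.20, beside -0.02 over all genes. The arrays did not overlap for 5 genes on the high side (29.1% of all genes) and for 21 on the low side (30.9%). The count of rises went from 4 to 2 without CdCl 48 h replicate 3 and to 1 without control 48 h replicate 1. Control 48 h replicate 2 was the highest of its group for 20 members (58.8%, beside 39.1% of all genes). CdCl 48 h replicate 2 was the lowest of its group for 19 (55.9%, beside 43.9%). Without the former 16 genes fell and without the latter 18. The shares of all genes in these fits without 1 array are not given here, so these counts show no excess over all genes.

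Direction was shared between the times for 17 genes. SRSF3, SRSF7 and SRSF12 rose at both, 8.82% of the members beside 11.4% of all genes. The 14 genes that fell at both, 41.2% of the members beside 19.0% of all genes, were CLK4, SRSF6, SRSF10, SRSF11, HNRNPA1, HNRNPA2B1, HNRNPAB, HNRNPD, HNRNPDL, HNRNPF, HNRNPH3, HNRNPLL, HNRNPM and HNRNPUL2. At neither time were HNRNPA0, HNRNPA3, HNRNPA3P1, HNRNPH1, HNRNPL, SRSF4 and SRSF8 called, 20.6% of the members beside 24.7% of all genes. No member was called in opposite directions on its main probe set, while 1.15% of all genes rose at 12 h and fell at 48 h and 4.09% did the reverse.

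**Figure D1:**
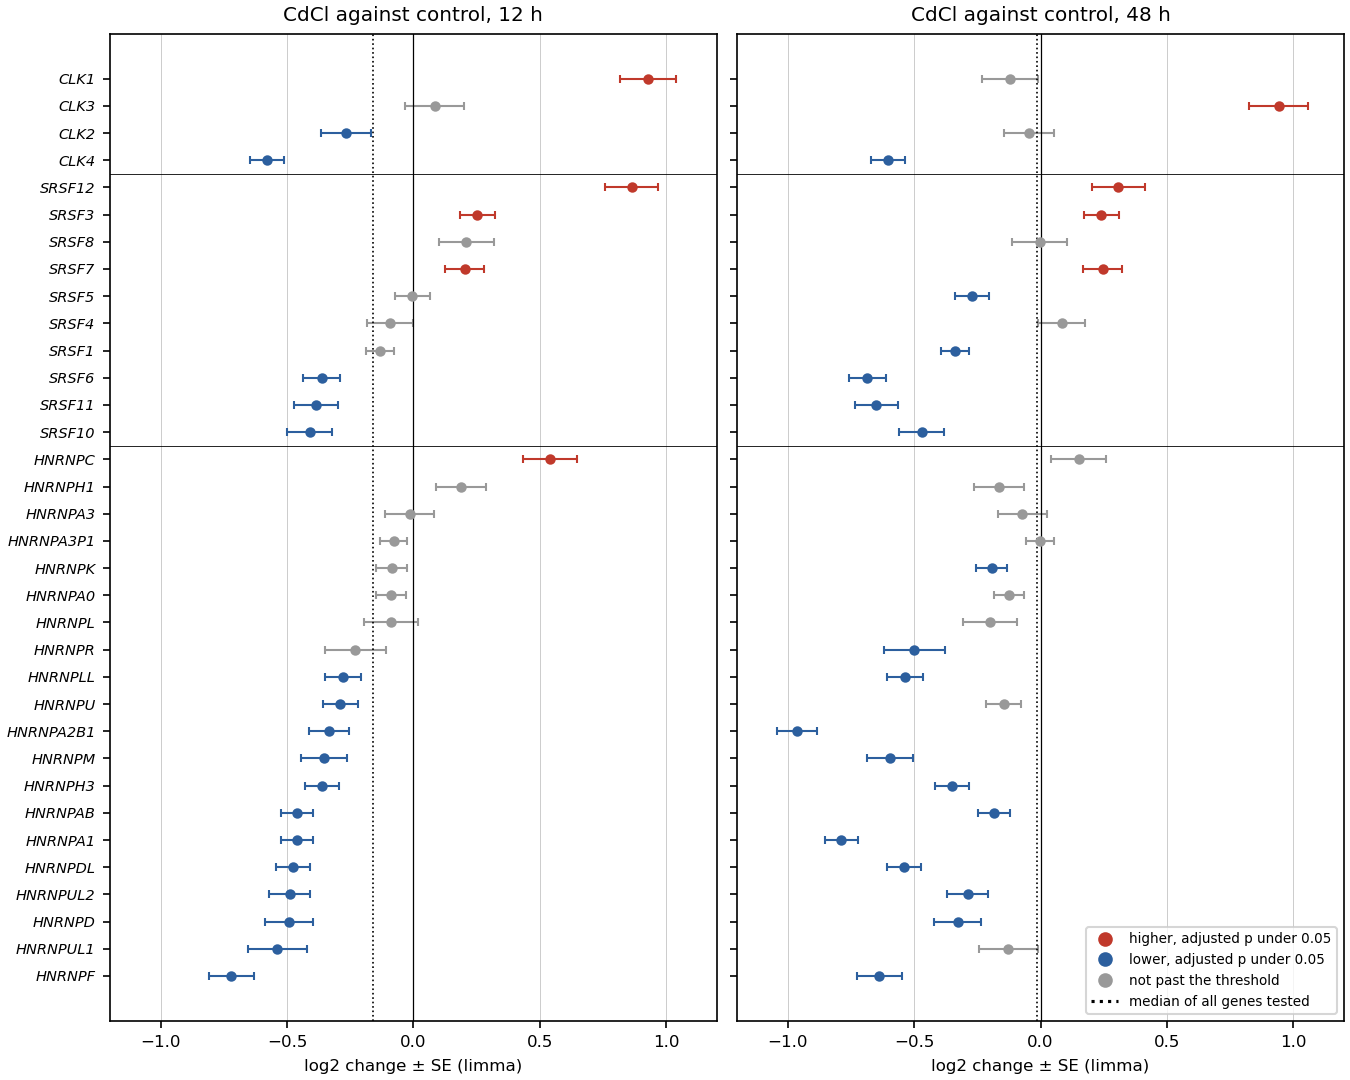
Change of each tested gene between CdCl and control cells at 12 h (left) and 48 h (right), as log2 change (horizontal axis) with the limma standard error as bar; colour marks an adjusted p under 0.05 and the dotted line the median of all genes tested (-0.16 and -0.02). The CLK genes (top block) spread from -0.58 to 0.93 at 12 h and from -0.61 to 0.94 at 48 h, and the HNRNP genes (bottom block) lie mostly left of 0 at both times.

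The 4 CLK kinase genes did not move together. CLK1 rose at 12 h, CLK3 rose at 48 h, CLK4 was lower at both times, and CLK2 was called lower at 12 h on a small margin. The rises were 1.90-fold for CLK1 and 1.92-fold for CLK3.

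CLK1 read 10.07, 10.02 and 9.82 on the control arrays at 12 h and 10.80, 10.79 and 11.10 on the CdCl arrays, and at 48 h it read 10.72, 10.80 and 10.56 in control and 10.57, 10.44 and 10.71 in CdCl. The control arrays at 12 h stood below the other 9 arrays, and at 48 h the groups overlapped. The log2 change was 0.93 ± 0.11 at 12 h (adjusted p = 3.06e-05) and -0.12 ± 0.11 at 48 h, where the 95% interval ran from -0.36 to 0.12. The effects differed by -1.05 ± 0.16 (adjusted p = 3.92e-04). Control cells alone gained 0.73 ± 0.11 between 12 h and 48 h, to a level near that of the CdCl cells.

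CLK4, the closest relative of CLK1, read 8.53, 8.47 and 8.33 in control and 7.86, 7.85 and 7.89 in CdCl at 12 h, and 9.04, 9.07 and 8.97 against 8.46, 8.37 and 8.44 at 48 h. Every CdCl array lay below every control array of its time, by -0.58 ± 0.07 at 12 h (adjusted p = 2.52e-05) and -0.61 ± 0.07 at 48 h (adjusted p = 1.47e-05). Its level also went up with time in both arms, by 0.58 ± 0.07 in control and 0.56 ± 0.07 in CdCl cells. A further probe set of CLK4 gave -0.52 ± 0.28 at 12 h, which was not called, and -0.75 ± 0.28 at 48 h.

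CLK3 read 6.88, 7.24 and 7.26 in control and 7.16, 7.19 and 7.27 in CdCl at 12 h, and 6.90, 6.68 and 6.90 against 7.85, 7.88 and 7.58 at 48 h. The groups overlapped at 12 h and stood apart at 48 h, with the CdCl arrays at 48 h above the other 9. The change was 0.08 ± 0.12 at 12 h (interval -0.17 to 0.34) and 0.94 ± 0.12 at 48 h (adjusted p = 3.39e-05), a difference of 0.86 ± 0.16 between the times.

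CLK2 read 7.26, 7.25 and 6.86 in control and 6.87, 6.84 and 6.86 in CdCl at 12 h, and 6.86 on every control array at 48 h against 6.71, 6.87 and 6.86 in CdCl. Apart from control replicates 1 and 2 at 12 h and CdCl replicate 1 at 48 h, the arrays read 6.84 to 6.87, and the groups overlapped at both times. The 12 h change of -0.27 ± 0.10 (adjusted p = 0.036) ranged from -0.40 to -0.20 when 1 array was left out and lost its call when control replicate 1 or 2 or any CdCl replicate of that time was left out (adjusted p up to 0.136).

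**Figure D2:**
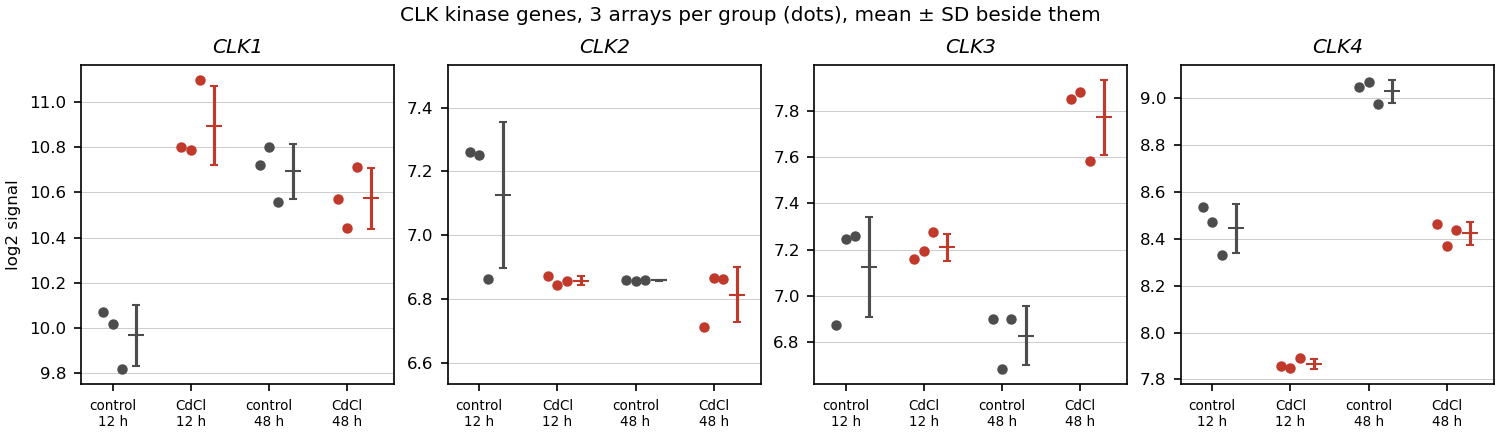
Log2 signal of CLK1, CLK2, CLK3 and CLK4 on each array (dots, vertical axes scaled per gene) in the 4 groups, with mean ± SD of 3 arrays beside the dots. CLK1 is low in control cells at 12 h (9.82 to 10.07), CLK3 is high in CdCl cells at 48 h (7.58 to 7.88), and CLK4 is lower in CdCl than in control cells at each time.

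CLK1 and CLK4, which moved in opposite directions at 12 h, and HNRNPA2B1, which had the largest fall at 48 h, are shown with the 250 bases before an annotated transcription start, 5' to 3' on the gene's strand (RefSeq, GRCh38.p14). The regions are chr2:200864659-200864908, chr5:178627051-178627300 and chr7:26200747-26200996, and all 3 genes lie on the minus strand. Capitals mark matches to binding motifs of factors known for metal, oxidative and heat stress.
CLK1: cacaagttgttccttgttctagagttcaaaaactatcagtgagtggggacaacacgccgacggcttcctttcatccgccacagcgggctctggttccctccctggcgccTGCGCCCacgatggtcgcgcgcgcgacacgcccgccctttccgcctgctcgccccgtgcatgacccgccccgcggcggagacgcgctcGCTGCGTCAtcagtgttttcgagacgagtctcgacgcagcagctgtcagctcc
CLK4: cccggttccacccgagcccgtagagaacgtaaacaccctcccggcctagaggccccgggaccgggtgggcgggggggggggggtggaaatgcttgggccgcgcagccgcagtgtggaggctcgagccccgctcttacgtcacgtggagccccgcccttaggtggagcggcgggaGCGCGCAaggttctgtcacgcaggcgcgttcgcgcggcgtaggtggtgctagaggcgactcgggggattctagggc
HNRNPA2B1: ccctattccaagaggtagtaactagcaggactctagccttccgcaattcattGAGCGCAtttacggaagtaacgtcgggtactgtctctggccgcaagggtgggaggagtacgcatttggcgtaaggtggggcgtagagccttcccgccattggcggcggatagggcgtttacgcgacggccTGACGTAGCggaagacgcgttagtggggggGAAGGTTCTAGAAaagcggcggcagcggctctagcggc

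The motifs were searched on both strands in windows from 250 bases before to 50 bases after each start, over 35116 RefSeq promoters, of which 49 belong to 33 of the members. The heat shock element of 3 units (GAA and TTC in turn, starting with either, with any 2 bases between units), bound by HSF1, was present in 0.49% of all promoters and in 1 member promoter, that of HNRNPA2B1, 38 bases before the start. The form of 2 units (GAANNTTC or TTCNNGAA), which the form of 3 units contains, was in 13.5% of all promoters and in 4 of the member promoters (8.16%), of HNRNPA2B1, HNRNPC and SRSF8. The antioxidant response element bound by NRF2 (TGACNNNGC) was in 13.3% of all promoters and 9 member promoters (18.4%), among them those of CLK1, CLK3 and HNRNPA2B1. The metal response element bound by MTF1 (TGCACNC or TGCGCNC) was in 29.6% of all and 21 member promoters (42.9%), CLK1, CLK4 and HNRNPA2B1 included. These are letter matches and not measured binding sites, and they stood in promoters of genes that rose and of genes that fell.

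The SR protein genes were divided in direction. Of 10 SRSF genes, 3 rose and 3 fell at 12 h (30.0% each, beside 16.7% and 39.7% of all genes), and 3 rose and 5 fell at 48 h (30.0% and 50.0%, beside 26.5% and 28.0%). SRSF12 had the largest rise, and SRSF6, SRSF11 and SRSF10 the largest falls.

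SRSF12, an SR-like protein described as an inhibitor of splicing that binds other SR proteins, read 5.64, 5.90 and 5.81 in control and 6.55, 6.80 and 6.59 in CdCl at 12 h, and 5.68, 5.56 and 5.75 against 6.02, 5.79 and 6.09 at 48 h. The CdCl arrays lay above the controls at both times, with the wider gap at 12 h. The change was 0.86 ± 0.10 at 12 h (adjusted p = 3.31e-05) and 0.31 ± 0.10 at 48 h (adjusted p = 0.0257), and the effects differed by -0.56 ± 0.15. The 48 h call was lost when replicate 1 or 3 of the CdCl arrays or replicate 1 or 2 of the controls at 48 h was left out (adjusted p up to 0.0955), while the other probe set of the gene gave 0.91 ± 0.15 and 0.47 ± 0.15, both called.

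SRSF6, an SR protein that promotes exon inclusion, read 11.07, 11.24 and 11.20 in control and 10.80, 10.87 and 10.75 in CdCl at 12 h, and 10.91, 10.99 and 10.84 against 10.12, 10.25 and 10.30 at 48 h. There was no overlap at either time, and the CdCl arrays at 48 h were the lowest of the 12. The change was -0.36 ± 0.07 at 12 h (adjusted p = 0.00145) and -0.69 ± 0.07 at 48 h (adjusted p = 1.23e-05). Its other probe set gave 0.32 ± 0.14 at 12 h, not called, and -1.15 ± 0.14 at 48 h.

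SRSF11, an arginine-serine-rich protein of the early spliceosome, read 12.51, 12.69 and 12.58 in control and 12.16, 12.24 and 12.23 in CdCl at 12 h, and 12.68, 12.79 and 12.59 against 12.03, 11.90 and 12.18 at 48 h. All CdCl arrays lay below the controls, by -0.39 ± 0.09 at 12 h (adjusted p = 0.00247) and -0.65 ± 0.09 at 48 h (adjusted p = 5.76e-05). The next probe set gave -0.13 ± 0.09, not called, and -0.92 ± 0.09, and another gave -0.96 ± 0.41 at 12 h, not called.

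SRSF10, a splicing repressor that heat shock activates through dephosphorylation, read 11.24, 11.21 and 11.18 in control and 10.70, 10.82 and 10.88 in CdCl at 12 h, and 11.02, 11.05 and 10.83 against 10.57, 10.33 and 10.59 at 48 h. CdCl arrays were below the controls at both times without overlap. The change was -0.41 ± 0.09 (adjusted p = 0.00205) and -0.47 ± 0.09 (adjusted p = 8.07e-04). Of its 4 further probe sets, 2 were also called lower at both times and 2 were called at neither, with changes of 0.08 ± 0.10 and 0.05 ± 0.21 at 12 h.

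SRSF1, the best known SR protein and a regulator of its own transcript, read 12.88, 12.84 and 12.89 in control and 12.71, 12.78 and 12.72 in CdCl at 12 h, and 12.13, 12.19 and 12.19 against 11.85, 11.82 and 11.83 at 48 h. The CdCl arrays were lower at both times without overlap, yet the 12 h change of -0.13 ± 0.06 was not called (adjusted p = 0.0607). At 48 h the change was -0.34 ± 0.06 (adjusted p = 2.96e-04).

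SRSF5, an SR protein first found as an early response gene in regenerating liver, read 10.93, 10.91 and 10.95 in control and 10.93 on each CdCl array at 12 h, and 11.03, 11.09 and 11.07 against 10.64, 10.87 and 10.85 at 48 h. Groups overlapped at 12 h, where the interval of the change was -0.15 to 0.15, and stood apart at 48 h, where the change was -0.27 ± 0.07 (adjusted p = 0.00521). SRSF3, a small SR protein that couples splicing to export and 3' end formation, was higher by 0.25 ± 0.07 at 12 h and 0.24 ± 0.07 at 48 h, and its next 2 probe sets were called higher at both times too, while another gave -0.12 ± 0.10 at 48 h without a call. Without control 48 h replicate 1 the adjusted p of SRSF3 at 48 h was 0.0515.

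SRSF7 was called higher by 0.20 ± 0.08 at 12 h and 0.25 ± 0.08 at 48 h on a probe set whose probes can also match related transcripts. Its other 2 probe sets above the filter gave -0.05 ± 0.07, not called, and -0.19 ± 0.08, called lower, at 12 h, and -0.49 ± 0.07 and -0.57 ± 0.08 at 48 h, both called lower, so the probe sets of the gene went in opposite directions. The call of the main probe set was lost at 48 h when CdCl replicate 2 or 3 or control replicate 1 of that time was left out (adjusted p up to 0.0736). At 12 h it was lost without any CdCl replicate or control replicate 2 or 3 of that time, and without control replicate 3 of 48 h (up to 0.123). In the fit of all probe sets, the 12 h change of that probe set had an adjusted p of 0.0532. SRSF4 and SRSF8 were called at neither time, with changes between -0.09 and 0.21.

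**Figure D3:**
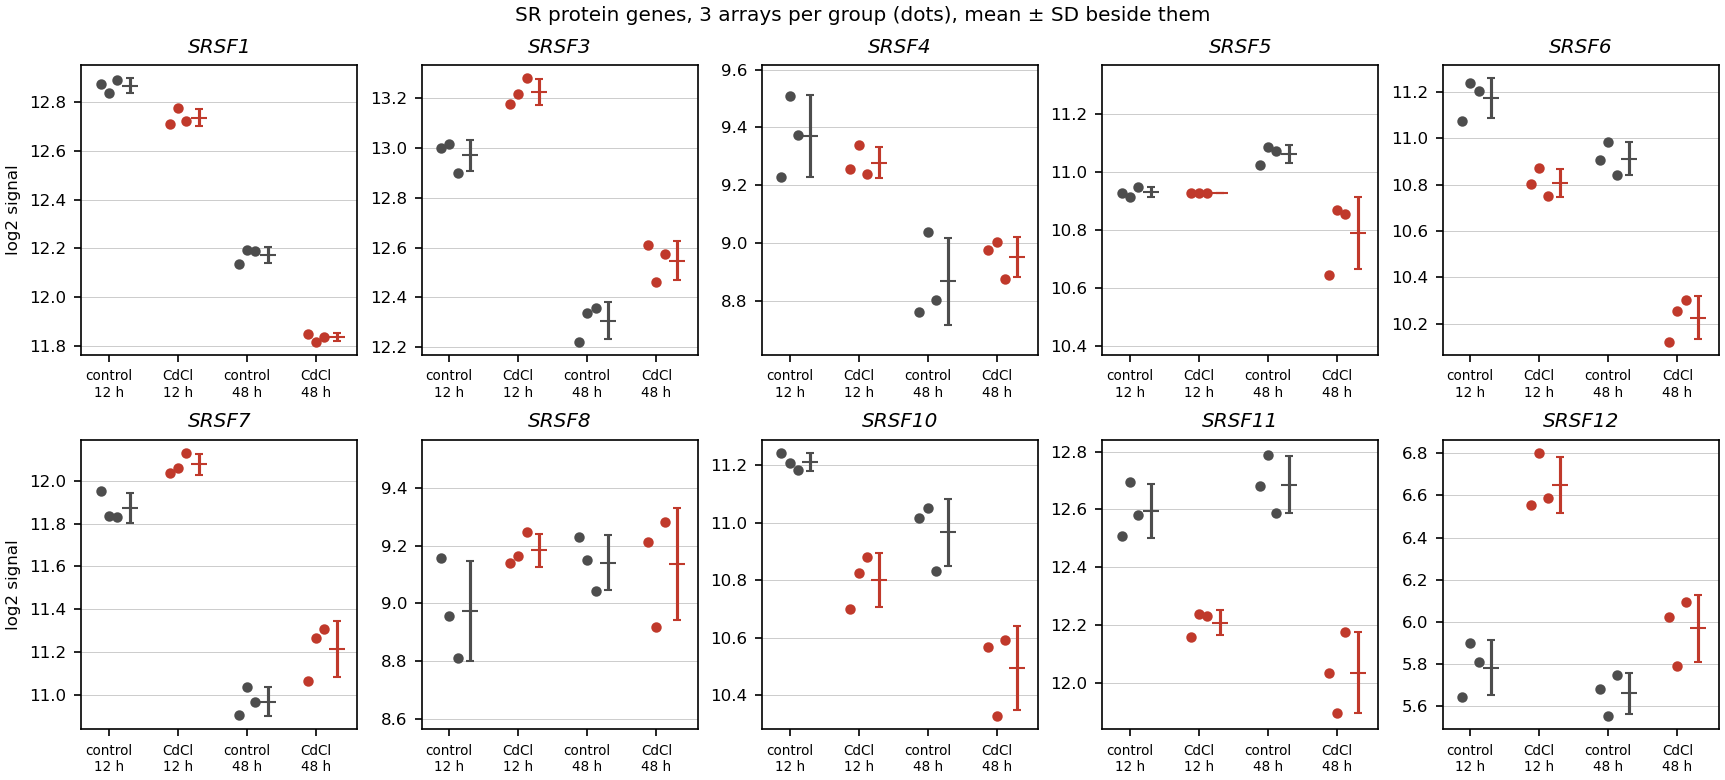
Log2 signal of the 10 SRSF genes on each array (dots, vertical axes scaled per gene) in the 4 groups, with mean ± SD of 3 arrays beside the dots. SRSF12 is highest in CdCl cells at 12 h (6.55 to 6.80), SRSF6 is lowest in CdCl cells at 48 h (10.12 to 10.30), and SRSF1, SRSF3 and SRSF7 are lower at 48 h than at 12 h in both arms.

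The HNRNP genes that changed were nearly all lower. Of 20 tested, 12 fell and 1 rose at 12 h, and at 48 h 12 fell and 0 rose, with limma's p adjusted or unadjusted. The falls make 60.0% at each time, beside 39.7% of all genes at 12 h and 28.0% at 48 h. Their median change was -0.31 at 12 h and -0.24 at 48 h, beside -0.16 and -0.02 over all genes. With the arrays centred on the median, the 12 h falls of HNRNPA2B1, HNRNPLL, HNRNPM and HNRNPU were no longer called.

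HNRNPA2B1, an abundant hnRNP also known to sort microRNAs into exosomes, read 13.63, 13.70 and 13.68 in control and 13.34, 13.34 and 13.32 in CdCl at 12 h, and 12.91, 13.00 and 12.73 against 11.92, 11.82 and 12.01 at 48 h. The 4 groups did not overlap with each other, and CdCl at 48 h was lowest. The change was -0.33 ± 0.08 at 12 h (adjusted p = 0.00344) and -0.96 ± 0.08 at 48 h (adjusted p = 1.22e-06), a 1.95-fold lower level. Other probe sets were lower at 12 h by -0.39 ± 0.07 and -0.91 ± 0.11, and gave -0.19 ± 0.07, not called, and -0.56 ± 0.11 at 48 h, so the larger fall at 48 h was not shared by them.

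HNRNPA1, a silencer of exon inclusion and the best known antagonist of SRSF1, read 11.14, 11.18 and 11.03 in control and 10.64, 10.64 and 10.67 in CdCl at 12 h, and 11.35, 11.36 and 11.31 against 10.47, 10.59 and 10.59 at 48 h. CdCl arrays were lower at both times with no overlap. The change was -0.46 ± 0.06 (adjusted p = 9.19e-05) and -0.79 ± 0.06 (adjusted p = 1.18e-06). This probe set can match related transcripts, and HNRNPA1 has many pseudogenes. Its other 2 probe sets fell at 12 h by -0.98 ± 0.19 and -0.89 ± 0.21 and were not called at 48 h (-0.34 ± 0.19 and -0.09 ± 0.21).

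HNRNPF, which binds G-rich sequences, read 11.05, 10.97 and 10.79 in control and 10.26, 10.30 and 10.09 in CdCl at 12 h, and 10.46, 10.61 and 10.66 against 10.01, 9.90 and 9.90 at 48 h. The CdCl arrays lay lower at both times without overlap. It had the largest fall of the members at 12 h, -0.72 ± 0.09 (adjusted p = 3.92e-05), and fell by 0.64 on the log2 scale at 48 h (SE 0.09, adjusted p = 8.71e-05).

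HNRNPM, a regulator of splicing in epithelial to mesenchymal transition, read 11.66, 11.53 and 11.70 in control and 11.20, 11.31 and 11.32 in CdCl at 12 h, and 11.10, 11.30 and 10.99 against 10.64, 10.43 and 10.55 at 48 h. No array of CdCl reached a control of its time. The change was -0.36 ± 0.09 at 12 h (adjusted p = 0.00585) and -0.60 ± 0.09 at 48 h (adjusted p = 1.82e-04). The probe set of next highest mean fell alike, and another, at a level near 5, was called higher at 12 h by 0.48 ± 0.14 and gave 0.20 ± 0.14 at 48 h without a call.

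HNRNPDL, a relative of HNRNPD that regulates its own splicing, read 12.27, 12.19 and 12.20 in control and 11.75, 11.78 and 11.69 in CdCl at 12 h, and 12.21, 12.10 and 12.19 against 11.52, 11.65 and 11.70 at 48 h. The arms stood apart by a like distance at both times. The change was -0.48 ± 0.07 (adjusted p = 9.87e-05) and -0.54 ± 0.07 (adjusted p = 3.47e-05). The 5 probe sets of the gene above the filter were all called lower at 48 h, by as much as -1.37 ± 0.11.

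HNRNPC, which binds uridine-rich tracts and keeps cryptic exons silent, was the single HNRNP gene called higher. It read 12.34, 11.84 and 12.09 in control and 12.62, 12.60 and 12.67 in CdCl at 12 h, and 12.35, 12.38 and 12.36 against 12.58, 12.40 and 12.56 at 48 h. The CdCl arrays were higher at both times, but the 12 h controls varied more than for any other member in that group. The change was 0.54 ± 0.11 at 12 h (adjusted p = 0.00122) and 0.15 ± 0.11 at 48 h (interval -0.09 to 0.39), where 2 of its other probe sets were called higher (0.23 ± 0.08 and 0.20 ± 0.08) and 1 was called lower (-1.46 ± 0.29). Of its other probe sets above the filter at 12 h, 1 rose by 0.57 ± 0.09, 3 lay between 0.08 and 0.12 without a call, and 1 with a level near 4 in control fell by 1.19 (SE 0.29). The probe set called lower was the same at both times, with means of 4.04 and 3.97 in control and 2.85 and 2.52 in CdCl. It passed the filter of 4 through the control arrays, so its falls are partly set by the filter and are not read as support.

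Of the remaining HNRNP genes, 7 were lower at each time. At 12 h HNRNPUL1 (-0.54 ± 0.12), HNRNPD (-0.49 ± 0.09), HNRNPUL2 (-0.49 ± 0.08), HNRNPAB (-0.46 ± 0.06), HNRNPH3 (-0.36 ± 0.07), HNRNPU (-0.29 ± 0.07) and HNRNPLL (-0.28 ± 0.07) were lower. At 48 h HNRNPLL (-0.54 ± 0.07), HNRNPR (-0.50 ± 0.12), HNRNPH3 (-0.35 ± 0.07), HNRNPD (-0.33 ± 0.09), HNRNPUL2 (-0.29 ± 0.08), HNRNPK (-0.19 ± 0.06) and HNRNPAB (-0.18 ± 0.06) were. Other probe sets above the filter were not called at 12 h for HNRNPLL (-0.12 ± 0.15 and -0.12 ± 0.11), HNRNPH3 (-0.10 ± 0.09, -0.29 ± 0.13 and -0.20 ± 0.12) and HNRNPUL2 (-0.04 ± 0.06). HNRNPU, read on a probe set that can match related transcripts, had others of -0.38 ± 0.09, called, and -0.11 ± 0.09, -0.23 ± 0.17 and 0.27 ± 0.17, not called. The other probe set of HNRNPUL1 was called lower at 12 h (-0.50 ± 0.11), as were most of HNRNPD. HNRNPD binds AU-rich elements and promotes decay of short-lived mRNAs, and HNRNPLL regulates alternative splicing of CD45 in lymphocytes. The 48 h call of HNRNPAB was lost when CdCl replicate 1 or 3 or control replicate 2 or 3 of that time was left out (adjusted p up to 0.0956), and that of HNRNPK when CdCl replicate 3 or control replicate 1 or 2 was (up to 0.0639).

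The size of the CdCl effect differed between the times for 8 members, 23.5% of 34 beside 40.1% of all genes, 2 of them upward (27.0% of all genes) and 6 downward (13.0%). The effect at 48 h minus that at 12 h was higher for CLK3 (0.86 ± 0.16) and HNRNPAB (0.28 ± 0.09) and lower for CLK1 (-1.05 ± 0.16), HNRNPA2B1 (-0.63 ± 0.11), SRSF12 (-0.56 ± 0.15), HNRNPA1 (-0.33 ± 0.09), SRSF6 (-0.32 ± 0.11) and SRSF5 (-0.27 ± 0.10). Their adjusted p in limma ran from 3.92e-04 (CLK1) to 0.044 (SRSF5). The number called was 5 without CdCl 12 h replicate 2, without control 48 h replicate 1 or without control 48 h replicate 2, and 11 without CdCl 48 h replicate 3. It was 13 with arrays centred on the median and 14 with a trended and robust prior. Shares of all genes in these fits are not given here. On the probe sets of next highest mean the differences of HNRNPA1 (0.63) and HNRNPA2B1 (0.20) were above 0, neither called. The call of SRSF5 was lost in every fit without 1 array other than those without replicate 2 or 3 of the CdCl arrays at 48 h (adjusted p up to 0.0913). That of SRSF6 was lost when replicate 1 of any group, replicate 2 of CdCl at 12 h or replicate 2 of control at 48 h was left out (up to 0.0718). That of HNRNPAB was lost when replicate 2 of any group, replicate 3 of either group at 12 h or replicate 1 of control at 48 h was left out (up to 0.074).

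Levels also changed with time in culture. In control cells, 19 members were lower and 4 higher at 48 h than at 12 h, 67.6% called beside 56.9% of all genes, with 55.9% lower beside 33.5% and 11.8% higher beside 23.4%. The largest falls were those of SRSF7 (-0.91 ± 0.08), HNRNPUL1 (-0.89 ± 0.12), HNRNPAB (-0.87 ± 0.06) and HNRNPA2B1 (-0.79 ± 0.08), and CLK1 (0.73 ± 0.11) and CLK4 (0.58 ± 0.07) had the largest rises. In CdCl cells, 20 members were lower and 2 (CLK3 and CLK4) higher, 64.7% called beside 62.3% of all genes, with 58.8% lower beside 27.6% and 5.88% higher beside 34.7%. HNRNPA2B1 fell by 1.42 on the log2 scale (SE 0.08) and SRSF1 by 0.90 (SE 0.06). All 10 SRSF changes on the main probe sets were below 0 there, and 7 were called. Other probe sets went against some of these: HNRNPA2B1's next one changed by 0.03 ± 0.07 in control and rose by 0.23 ± 0.07 in CdCl cells, 1 of SRSF1 rose by 0.54 ± 0.13 in CdCl cells, and 1 of SRSF7 rose by 0.53 ± 0.08 in control cells. In control cells HNRNPA1 (0.23 ± 0.06) and HNRNPC (0.27 ± 0.11) rose on their main probe sets. Others of these genes were called lower there, by -1.08 ± 0.21 for HNRNPA1 and by -0.50 ± 0.09 and -0.20 ± 0.08 for HNRNPC. The HNRNPC rise had an adjusted p of 0.0479 in limma, 0.0561 in the fit of all probe sets and up to 0.202 without 1 array. For HNRNPU, lower on its main probe set, 1 other rose by 0.54 ± 0.17. With the probe set of second highest mean, 14 members in place of 23 were called in control cells. Members whose second probe set was under the filter drop out of that fit, and its share of all genes is not given here. The comparisons share arrays with those of CdCl against control, so they are given side by side and not as separate support.

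Most of these genes were read by more than 1 probe set. Over 104 probe sets of the members that passed the filter, in a limma fit of 19005 probe sets, 15 were called higher and 37 lower at 12 h, and 10 higher and 52 lower at 48 h. Of all probe sets in that fit, 52.1% were called at 12 h and 49.7% at 48 h. The called share of the members' probe sets was not above this at 12 h, and was above it at 48 h. Shares of all probe sets by direction are not given here, so no excess in 1 direction is read from these counts. Among 28 genes with more than 1 such probe set, every probe set was called in 1 direction for HNRNPA1, HNRNPA2B1, HNRNPUL1 and SRSF12 at 12 h, and for CLK4, HNRNPD, HNRNPDL, HNRNPLL, SRSF6 and SRSF12 at 48 h. Probe sets were called in both directions for HNRNPA3, HNRNPC and HNRNPM at 12 h and for HNRNPC, SRSF1 and SRSF7 at 48 h, 3 of the 28 genes each time. For HNRNPC the call downward rests at both times on the probe set that passed the filter through the control arrays. The shares of all genes with such agreement or disagreement are not given here.

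SRSF1 had 8 probe sets in the fit. While the main one fell at 48 h, another rose from a mean of 8.57 in control to 9.12 in CdCl (0.55 ± 0.13, adjusted p = 0.00463), and the one with the next highest mean rose at 12 h from 10.01 to 10.50 (0.50 ± 0.11, adjusted p = 0.00351). SRSF4, with no call on its main probe set, had another that fell from 6.89 to 5.92 at 12 h (-0.97 ± 0.18) and from 6.80 to 5.90 at 48 h (-0.91 ± 0.18), and a further one that fell at 48 h (-1.06 ± 0.19). HNRNPU, not called at 48 h on its main probe set, fell on 3 of its others, by -0.37 ± 0.09, -0.70 ± 0.09 and -0.90 ± 0.17. HNRNPA0, called at neither time, fell at 48 h on another (-0.72 ± 0.20). HNRNPH1, which binds G-rich sequences like HNRNPF, had a probe set that rose at 12 h (0.68 ± 0.12) and fell at 48 h (-0.57 ± 0.12), each called. HNRNPH3 and HNRNPUL2 fell at 48 h on their main probe sets, while 3 others of HNRNPH3 (0.12 ± 0.09, 0.01 ± 0.13 and 0.06 ± 0.12) and 1 of HNRNPUL2 (0.04 ± 0.06) were not called. HNRNPA3 had a probe set called lower (-0.23 ± 0.08) and another called higher (0.19 ± 0.07) at 12 h. Which transcripts each probe set reads was not tested.

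**Figure D4:**
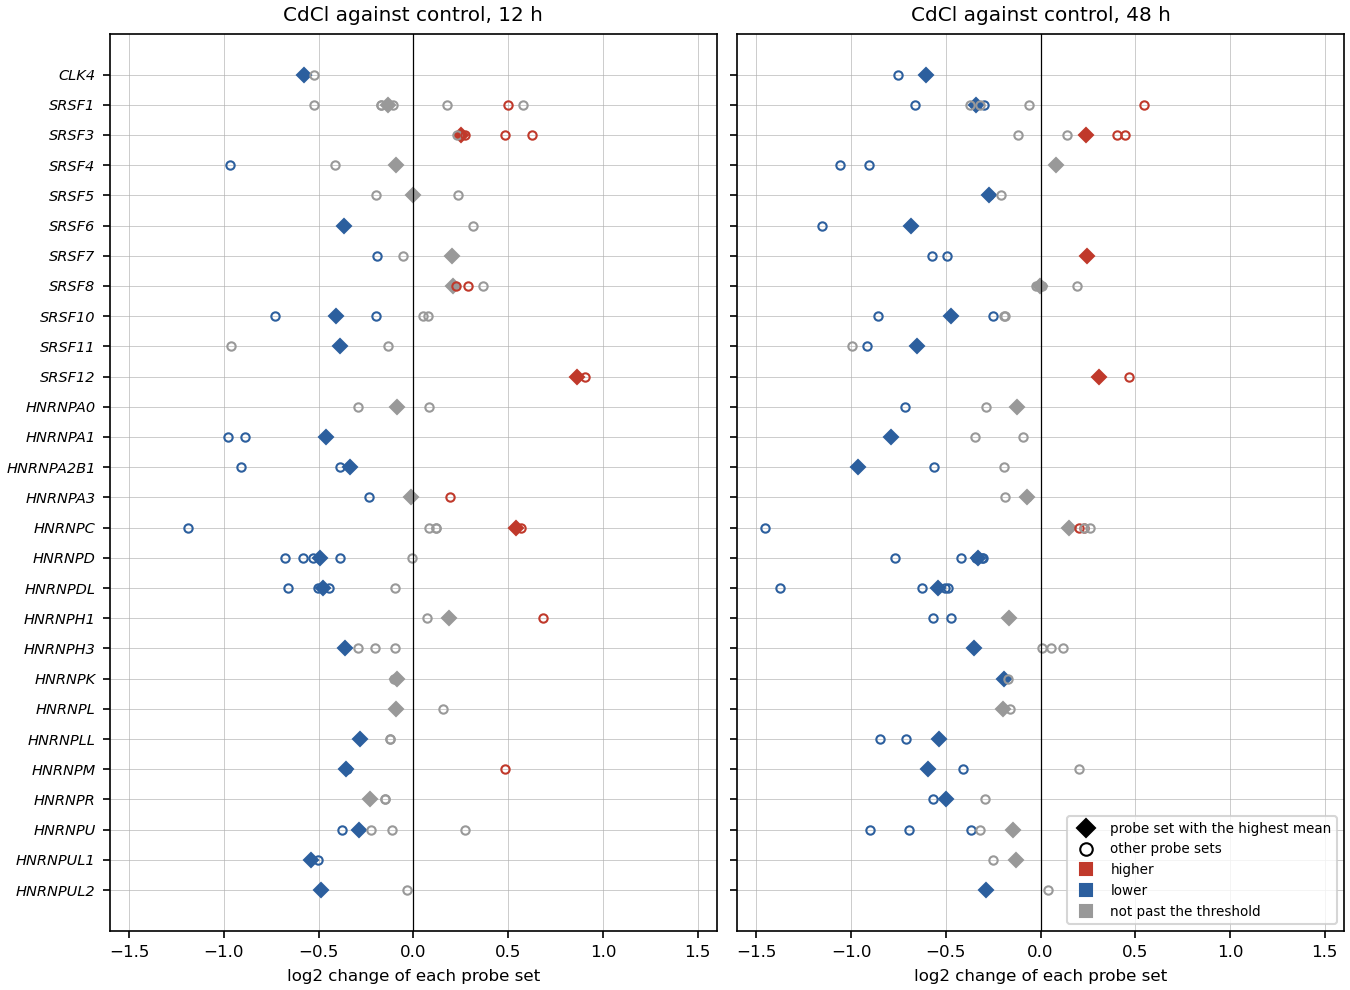
Log2 change between CdCl and control cells at 12 h (left) and 48 h (right) of every probe set above the filter, for the members with more than 1 shown in rows; filled diamonds are the probe sets with the highest mean, open circles the others, and colour marks an adjusted p under 0.05 in the fit of all probe sets. HNRNPC spans -1.19 to 0.57 at 12 h and SRSF1 spans -0.66 to 0.55 at 48 h, while SRSF12 stays to the right of 0 and HNRNPD, HNRNPDL and HNRNPLL to the left at 48 h. The -1.19 of HNRNPC belongs to a probe set that passed the filter through the control arrays.

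Genes that act with these regulators were read from 6 lists, beside all genes tested, of which 16.7% rose and 39.7% fell at 12 h (median -0.16) and 26.5% rose and 28.0% fell at 48 h (median -0.02). SR-related proteins and U2AF subunits, which bridge SR proteins and the spliceosome, had 25 genes tested, of which 2 rose and 13 fell at 12 h (median -0.20) and 3 rose and 6 fell at 48 h (median -0.01). LUC7L3, a U1-associated protein, was lower by -0.41 ± 0.09 and -0.86 ± 0.09. SCAF8, which binds the polymerase tail, was lower by -0.68 ± 0.08 and -0.43 ± 0.08. SRRM1, a nuclear matrix coactivator of splicing, was lower at 12 h (-0.71 ± 0.07) and not called at 48 h (-0.03 ± 0.07), and its other probe set gave -0.13 at 12 h without a call.

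Other kinases, phosphatases and import factors of SR proteins had 16 genes tested, and 5 rose and 5 fell at each time. PPP1R10, a targeting subunit of protein phosphatase 1, rose from 5.50 ± 0.13 (SD, n = 3) to 7.31 ± 0.23 at 12 h (1.80 ± 0.12) and by 0.88 ± 0.12 at 48 h, while its other probe set rose by 0.47 and 0.91. TOP1, topoisomerase 1, which can also phosphorylate SR proteins, rose by 0.64 ± 0.07 and 1.21 ± 0.07. PPP1CC, a catalytic subunit of protein phosphatase 1, was lower by -0.46 ± 0.07 and -0.98 ± 0.07.

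HnRNP-type proteins under other symbols had 19 genes tested, of which 1 rose and 12 fell at 12 h (median -0.29) and 1 rose and 7 fell at 48 h (median -0.04). MSI2, an RNA-binding protein of stem cells, was lower by -0.36 ± 0.10 and -1.48 ± 0.10, and FUBP1 by -0.60 ± 0.15 and -1.42 ± 0.15. PTBP3, a relative of the polypyrimidine tract binding protein, was lower by -0.27 ± 0.08 and -0.70 ± 0.08, but 2 of its other probe sets were called higher at 12 h (0.31 and 0.47).

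Other alternative splicing regulators had 34 genes tested, of which 7 rose and 14 fell at 12 h (median -0.08) and 7 rose and 12 fell at 48 h (median -0.19). CELF2 rose by 1.81 ± 0.17 and 1.44 ± 0.17 and KHDRBS3 by 1.32 ± 0.11 and 1.55 ± 0.11. Control means were low, at 4.59 and 4.16 for CELF2, near the filter of 4, and 5.22 and 4.71 for KHDRBS3. No other probe set of either gene was above the filter. ESRP1, an epithelial splicing regulator, was lower at 12 h by -1.26 ± 0.09, with a change of -0.18 ± 0.09 at 48 h that was not called, and its other probe set gave -0.47 at 12 h without a call. The mean of ESRP1 at 12 h was 5.50 in control and 4.24 in CdCl, the latter near the filter.

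Core spliceosome genes numbered 56 tested, with 4 rises and 26 falls at 12 h (median -0.25) and 13 rises and 10 falls at 48 h (median 0.02). DDX46, a helicase of the U2 particle, was lower by -0.60 ± 0.09 and -1.12 ± 0.09, and SNRNP35, of the minor spliceosome, by -0.44 ± 0.07 and -0.86 ± 0.07. PRPF39, a U1 factor, was lower at 48 h by -0.92 ± 0.19.

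Exon junction and nonsense-mediated decay genes, which remove transcripts with poison exons, had 11 tested, with 2 rises and 5 falls at 12 h (median -0.12) and 4 rises and 1 fall at 48 h (median 0.01). ETF1, a release factor, rose by 0.67 ± 0.07 and 0.27 ± 0.07. EIF4A3, the core helicase of the junction complex, rose at 48 h by 0.47 ± 0.07, and SMG8, a regulator of the decay kinase SMG1, was lower by -0.55 ± 0.12 and -0.47 ± 0.12.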

How the data were processed

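Total RNA of 12 HK-2 cultures was labelled as biotinylated cRNA and hybridised to Affymetrix arrays of 54675 probe sets. The table deposited by the authors holds 1 log2 signal for every probe set and array, from GCRMA (version not given in the sources used here) per the submitters' processing notes, and no further normalization was applied. GCRMA corrects background by probe sequence, which limits what low signals show, and the number of arrays limits precision.

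Symbols came from the platform's probe annotation: 41091 probe sets had 1 symbol, 1801 had several, and 62 control probe sets were left out. For each of 19775 genes the probe set brightest on average across all arrays was read, and 10683 genes above 4 on at least 3 arrays were tested. Levels of different genes were not compared, since signals of different probe sets are not on 1 scale.

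One limma fit (version 3.58.1, R 4.3.3) of 4 group means over 12 arrays, with an untrended eBayes prior, gave 5 two-sided comparisons, with Benjamini-Hochberg adjustment over all genes tested and a threshold of 0.05. Changes are log2 differences ± SE and intervals are 95%. A second fit covered 19005 probe sets singly. For 3 arrays a group the smallest p of an exact permutation test is 0.1, so every call uses limma's variance estimate shared across genes. The fit was tested on simulated data. Alternatives concerned normalization, filter, probe set, prior, arrays in the fit, the replicate block and each array left out.

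The members and the 6 lists of related genes were chosen with earlier results of these data known. Every array is given for the CLK genes and for the 6 SRSF and 6 HNRNP genes with the largest absolute change at either time. Other members appear by their change, and up to 3 called genes per related list by largest change. The rule also gives other probe sets above the filter that differ in sign or by more than 0.5. A part of them is given. In the comparisons over time and of the effects between times, some called ones are left out.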

Additional observations from a re-analysis of the deposited data

Results flagged for a closer look

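The CdCl effect differed between 12 h and 48 h by the interaction term of the limma fit for 8 members, given as the effect at 48 h minus that at 12 h. CLK1 had the largest difference in size (-1.05), with CdCl above control on every array at 12 h and overlapping groups at 48 h. CLK3 showed the opposite order (0.86), its groups overlapping at 12 h and standing apart at 48 h. For SRSF12 (-0.56) the rise at 12 h was the larger of its rises. HNRNPA2B1 (-0.63), HNRNPA1 (-0.33) and SRSF6 (-0.32) were lower in CdCl at both times and further so at 48 h. SRSF5 (-0.27) was called lower at 48 h and not at 12 h, and HNRNPAB (0.28) fell at both times and further at 12 h. On their probe sets with the second highest mean, the differences of HNRNPA1 and HNRNPA2B1 had the opposite sign. Groups of 3 arrays are too small for a test of single outlying arrays.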

How the results depend on the processing

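Of 52 calls of members at 12 h, at 48 h or for the difference between them, 23 held in all 12 fits without 1 array and under each of the 10 other settings that gave a value for them (the groups of 1 comparison alone give none for a difference between times, and some genes have no second probe set above the filter), and 42 held in all 12 such fits. The median change of the members at 12 h went from -0.25 to -0.10 with arrays centred on the median, -0.12 with the mean of a gene's probe sets and -0.13 with the probe set of second highest mean, and to between -0.26 and -0.20 without 1 array. At 48 h it went from -0.20 to -0.24 after quantile normalization and -0.27 with the second probe set, and to between -0.26 and -0.20 without 1 array. The number called higher at 48 h lay between 1 and 4 without 1 array. The number whose effects differed between the times was 13 with centred arrays, 14 with a trended and robust prior and between 5 and 11 without 1 array, and could not be computed from the groups of 1 comparison alone. The number called between control cells at 48 h and 12 h fell from 23 to 14 with the second probe set. The sign turned with the second probe set for the difference between times of HNRNPA1 (0.63, and 0.37 with the mean of probe sets) and HNRNPA2B1 (0.20). It turned likewise for HNRNPH3 (0.12) and HNRNPUL2 (0.037) at 48 h, SRSF1 (0.50) and SRSF6 (0.32) at 12 h, and SRSF7 at 12 h (-0.053) and 48 h (-0.49, and -0.20 with the mean). The cause of these moves was not tested. Same-numbered replicates of CdCl and control at 48 h correlated at -0.03, -0.34 and -0.23 in their deviations from the group means, so the numbers were not taken to pair the samples. With a replicate block, 4 members rose and 16 fell at 12 h, 4 rose and 17 fell at 48 h, and 6 differed between the times. Shares of all genes under these other settings are not given here. The counts show how the calls of the members move, and no excess over all genes.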
